A study of Oryctolagus cuniculus with 6 samples.

Results

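Alternative exon boundaries were examined in skin of Prss53 knockout and wild-type rabbits, that is, exons of 1 locus that overlap each other but begin or end at different positions. Rows with the event type AE, and separately the type XAE, were taken from the authors' 6 tables, with 1 row per event and library. Overlapping exons of a locus formed a group, and each exon, called a form below, received its share of the group's summed FPKM (fragments per kilobase of transcript and sequencing depth, a level corrected for length). XAE is read here as AE with inexact flanking exons, and the sources used here do not define either type. The tables held 6409 AE and 2210 XAE events among 76612 events of all 20 types, together 11.25% of the total. Of these exons, 731 were listed under both types, which left 7888 distinct ones.

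The rabbits (Oryctolagus cuniculus) were 30 days old. Of the 6 RNA libraries, 3 are labelled Prss53-/-, the allele having been made with CRISPR/Cas9, and 3 are labelled wild type. PRSS53 is a trypsin-like serine protease, and the series' title ties it to hair curvature and skeletal dysplasia. The labels do not name founder lines, strain, sex or skin region, and do not say whether each library stands for an animal of its own. The p-values below therefore cover only the spread among these libraries, which could be technical. Skin is a mixture of cell types, and in bulk RNA fewer cells of a type and less RNA per cell cannot be told apart.

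The upstream end of an internal exon is set by the splice acceptor and the downstream end by the splice donor. Where a nearby second acceptor or donor is also used, the same exon is made in a longer and a shorter form. Within a coding region, a shift by a multiple of 3 bases adds or removes whole codons, while any other shift changes the reading frame downstream, which often brings an early stop codon and decay of the transcript by nonsense-mediated decay. The tables do not mark coding regions, so frame below means only whether the shift is a multiple of 3.

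The 6 libraries listed between 46368 and 49081 events, and the files hold no read counts, so depth is unknown. Knockout replicate 3 stood apart in shares: mean absolute differences in AE share from the other 5 libraries were 9.26 to 10.7 percentage points, against 8.31 to 9.53 points among those 5. Where a value named below turns on this library, the value without it is given beside it. Ensembl IDs carry no gene names in these tables, so Prss53 itself, skin cell type markers and splicing factors were not analysed here, and exons are given by position as in the authors' files, whose genome build is not given in the sources used here.

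The AE events lay at 2412 loci and formed 3009 groups, of which 402 held 1 form, 2207 held 2 forms and 400 held 3 or more, up to 24. The median AE exon was 168 bases long (range 8 to 20072). Listing was uneven. Of the AE events, 41.8% were listed in all 6 libraries and 27.2% in 1 library. Only 247 of the 2607 groups with at least 2 forms had every form listed in all 6 libraries, while 1357 had a form listed in 1 library. A row missing from a library counts as 0 in its shares, although an exon may be missing because its transcript could not be assembled. Some AE exons had other roles at their locus as well: 670 (10.5%) were also cassette exons and 787 (12.3%) spanned a whole retained intron. Of the XAE events, 36.2% were listed in all 6 libraries and 32.2% in 1, and 24.6% spanned a whole retained intron.

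Of the 2207 AE pairs (groups of exactly 2 forms), 2205 shared 1 boundary, so that a single shift described them: 886 lay on the donor side and 1319 on the acceptor side. The median shift was 70 bases (quartiles 28 and 279, range 3 to 19943). Short shifts were sparse. Only 6 pairs differed by under 10 bases, all on the acceptor side and by 3 to 5 bases, 4 of them by exactly 3, and no donor shift was under 10 bases. From 10 bases upward pairs were plentiful, with 26 at 10 bases and 22 at 11. The table sizes alone do not say whether shorter shifts were absent from the RNA or were not listed by the authors' software.

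Shifts by a multiple of 3 were over-represented against an even spread over the frames, which would give 33.3%. They made up 42.0% of the AE pairs (927 of 2205), 42.6% on the donor side and 41.7% on the acceptor side. The commonest single sizes were 12 bases (66 pairs), 15 bases (55) and 18 bases (44), all multiples of 3. The side mattered to which of these was common. On the donor side 12 bases led with 39 pairs and 18 bases had 6, whereas on the acceptor side 18 bases led with 38 pairs and 12 bases had 27. Multiples of 3 reached 55.0% among shifts of 21 to 30 bases (62.1% of donor shifts of that size and 51.0% of acceptor shifts), 47.6% at 10 to 20 bases, and 36.6% to 39.8% in every class above 30 bases. Long shifts were of another kind: the longer exon spanned a whole retained intron in 56.2% of the AE pairs with a shift over 1000 bases, against 13.7% of all AE pairs.

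**Figure D1:**
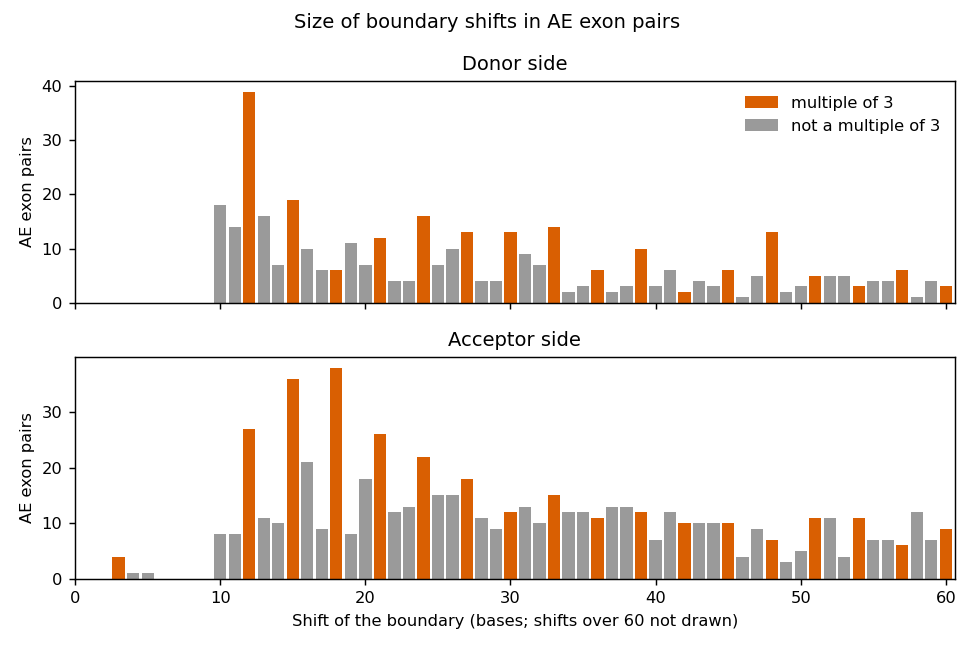
Number of AE pairs (vertical axis) at each size of boundary shift in bases (horizontal axis), donor side above and acceptor side below, with multiples of 3 in orange and other sizes in grey. The highest bars are 12 bases on the donor side (39 pairs) and 18 bases on the acceptor side (38 pairs), and between 5 and 10 bases the plot is empty.

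XAE pairs had larger shifts. Of 495 pairs sharing 1 boundary, the median shift was 385 bases, 44.8% had a longer exon that spanned a retained intron, and 38.2% shifted by a multiple of 3. Without such introns the median XAE shift was 81 bases (upper quartile 366) and 41.0% of 273 pairs were multiples of 3, against 55.5 bases (upper quartile 128.75) and 42.4% in the 1902 AE pairs without them.

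The frame of a shift went with how widely both forms were listed. Among AE pairs whose less listed form appeared in only 1 library, 34.9% (of 1063) shifted by a multiple of 3. This share was 34.7% for 2 libraries (377 pairs), 41.2% for 3 (216), 56.1% for 4 (157), 53.0% for 5 (151) and 69.7% for 6 (241). Pairs listed in a single library were thus near the even spread, and those with both forms in every library were mostly multiples of 3. Level moved along with this: the median summed FPKM was 4.45 in the 1-library class and 10.5 in the 6-library class. Among pairs with at least 5 FPKM in every library, where the median levels were 11.3 and 14.6, the shares were 37.5% (267 pairs) and 73.7% (167 pairs). Shift size moved along too, from a median of 78 bases to 43, and within shifts of up to 60 bases the shares were 35.9% and 75.7%. For XAE pairs the shares were 38.3% for 1 library (287 pairs), 30.1% for 2 (83 pairs) and 45.7% for 6 (35 pairs), and with at least 5 FPKM in every library they were 39.5% (76 pairs) for 1 and 40.9% (22 pairs) for 6. Pairs of 1 locus can share transcripts, and these shares are a description with no test.

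**Figure D2:**
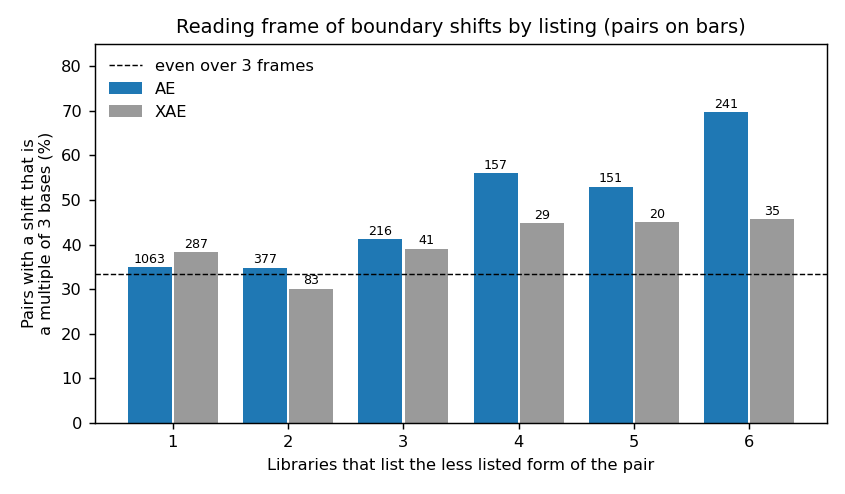
Percent of pairs whose shift is a multiple of 3 bases (vertical axis) by the number of libraries that list the less listed form (horizontal axis), AE in blue and XAE in grey, with the number of pairs on each bar and a dashed line at 33.3%. AE bars stand at 34.9% for 1 library and at 69.7% for 6.

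Balance between forms also went with frame. In the 1600 AE pairs with at least 1 FPKM in every library, the less used form averaged at least 10% in 41.8% of the 698 pairs with a multiple of 3 and in 22.6% of the 902 others. Both forms were listed in all 6 libraries in 24.1% and 8.09% of these. The longer form held over 50% in all 6 libraries in 620 pairs, under 50% in all 6 in 810, and lay on both sides in 170. Where the longer exon spanned a retained intron it was mostly the less used form: under 50% in all 6 libraries in 197 of 225 pairs, against 613 of 1375 where it did not.

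Measures with 1 value per library were compared next, and with 3 libraries a genotype none of them could reach an exact p under 0.1. Knockout libraries listed 4024, 4021 and 3942 AE events, and wild-type libraries 3931, 4204 and 4189 (exact two-sided permutation p = 0.4). For XAE the numbers were 1253, 1285 and 1299 in knockout and 1225, 1314 and 1325 in wild type (exact permutation p = 0.8). AE events with at least 5 FPKM numbered 1599, 1568 and 1542 in knockout and 1661, 1641 and 1646 in wild type. These groups do not overlap and give the smallest p possible (exact permutation p = 0.1, and 0.727 after Benjamini-Hochberg adjustment over the 20 per-library measures compared). XAE events with at least 5 FPKM numbered 571, 567 and 609 in knockout and 580, 586 and 578 in wild type, which overlap. This count was not compared over all events, so the AE difference may not be particular to AE. The longer exon of AE pairs averaged 44.4% ± 0.591 over the knockout libraries and 45.3% ± 0.847 over the wild-type ones (SD, n = 3 each, exact permutation p = 0.3, 0.727 adjusted over the 20 measures). The difference of -0.94 points (-0.63 without knockout replicate 3, -0.58 without wild-type replicate 3) was of the same sign in every AE class: pairs with a multiple of 3 (-1.37 points), other pairs (-0.61), donor shifts (-0.89) and acceptor shifts (-0.98), each with an exact permutation p of 0.2 or 0.3. These classes divide the same pairs by frame and again by side, so their common sign is not repeated evidence. The class values were not firm. Weighted by FPKM, pairs with a multiple of 3 turned to 0.41 points and other pairs stood at -1.86, and without knockout replicate 3 or wild-type replicate 3 the multiple-of-3 class was at -0.83 or -0.87. Acceptor shifts stood at -0.62 without knockout replicate 3. XAE pairs averaged 25.8% ± 0.417 over the knockout libraries and 26.3% ± 1.20 over the wild-type ones (SD, n = 3 each, exact permutation p = 0.7). XAE acceptor pairs lay between 29.5% and 30.5% in the knockout libraries (mean 30.1%) and reached 31.4% and 33.1% in wild-type replicates 2 and 3 (mean of all 3 31.8%), with every knockout library below every wild-type one (-1.74 points, exact permutation p = 0.1, 0.727 adjusted over the 20 measures). XAE donor pairs went the other way, by 0.50 points (exact permutation p = 0.6).

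Single forms were then compared by limma on shares, fitted over 17869 elements of all kinds (exon boundaries, cassette exons, retained introns, first and last exons) with Benjamini-Hochberg adjustment over all of them. In AE pairs only the longer form enters, since the other share is its complement. Of 2886 AE forms in 1911 groups, 11 passed an adjusted p of 0.05, which is 0.381%, against 0.621% of all elements. They lay in 9 groups at 9 loci, with 4 forms higher and 7 lower in knockout (0.139% and 0.243% of the AE forms, against 0.291% and 0.33% of all elements). The share of AE forms with an unadjusted p under 0.05 was 5.58%, against 6.86% of all elements, and the genotypes did not overlap in 7.93% of AE forms, against 8.83% of all elements. The median difference, knockout minus wild type, was -0.72 points over the AE forms and -0.33 over all elements. These medians are not like measures. AE pairs enter by their longer form, and the other elements by shares of cassette exons, retained introns and first and last exons. Of 1022 XAE forms, 6 passed (0.587%), 4 higher and 2 lower in knockout (0.391% and 0.196%), while 6.16% had an unadjusted p under 0.05 and 8.71% did not overlap. Without knockout replicate 3, 12 AE forms passed, 8 of them among the 11, and 7 XAE forms, 3 of them among the 6. Without knockout replicate 2 the counts were 6 and 3, and without wild-type replicate 2 they were 8 and 2.

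**Figure D3:**
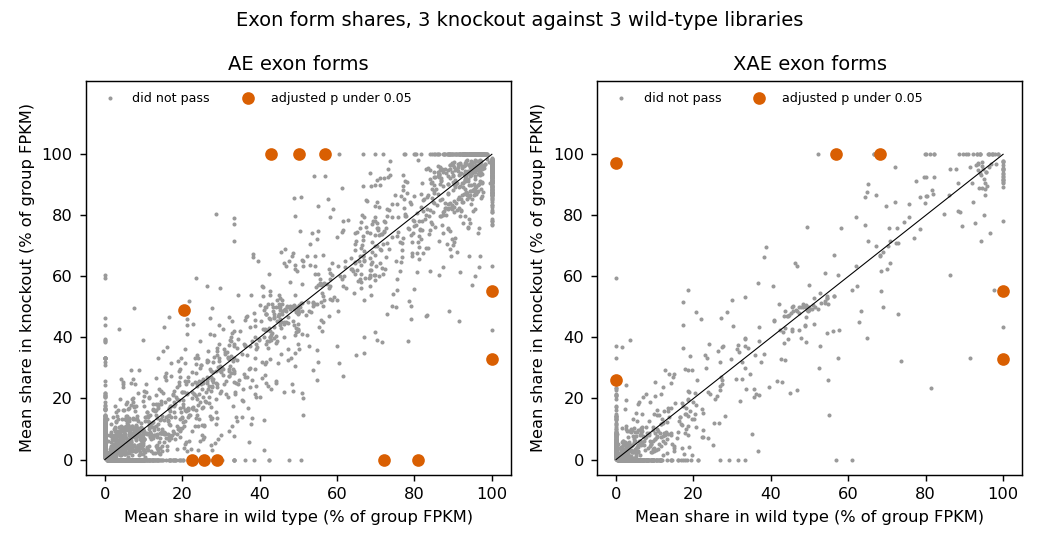
Mean share of each exon form in 3 knockout libraries (vertical axis, % of the group's FPKM) and in 3 wild-type libraries (horizontal axis), for 2886 AE forms (left) and 1022 XAE forms (right). Most forms lie near the diagonal, and most of the forms that passed (orange, 11 AE and 6 XAE) lie on an edge, at 0% or 100% in 1 genotype.

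Each of the 9 AE groups had a form that 1 genotype lacked in all 3 of its libraries. In 5 of them the knockout libraries listed 1 form only, and in 2 the wild-type libraries did. The 11 differences ranged in size from 22.4 to 80.9 points. Since the missing form is set to 0 in 3 libraries, its spread there is 0 as well, and the tables give no level below which an exon would go unlisted.

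The group with the smallest p was a pair on chromosome 3, plus strand (ENSOCUG00000017291), with exons at 30378788-30384522 (5735 bases) and 30384422-30384522 (101 bases), an acceptor shift of 5634 bases, which is a multiple of 3. The 5735-base exon was not listed in knockout, and its share there was 0% in all 3 libraries, against 71.8%, 76.2% and 68.6% in wild type (limma difference -72.22 points ± 3.19 SE, adjusted p = 0.00147). It passed in all 6 fits that left out 1 library. The 101-base exon had 9.55, 12.1 and 11.9 FPKM in knockout and 1.52, 2.84 and 3.63 FPKM in wild type. Its level thus rose as well (limma log2(FPKM + 1) change 1.77 ± 0.26 SE, adjusted p = 0.0276), with every knockout library above every wild-type one, but it missed the threshold whichever library was left out (adjusted p 0.0742 to 0.16 over the 6 fits).

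The most abundant called pair lay on an unplaced scaffold, minus strand (ENSOCUG00000021484), with exons at 383957-384121 (165 bases) and 383988-384121 (134 bases). The donor shift of 31 bases is not a multiple of 3. The 134-base form was listed at 232, 262 and 291 FPKM in knockout and at 186, 207 and 215 FPKM in wild type. The 165-base form was not listed in knockout and had 52.5, 62.9 and 60.3 FPKM in wild type, a share of 22.0%, 23.3% and 21.9% (limma difference in share -22.41 points ± 1.55 SE, adjusted p = 0.00544, passing in all 6 fits without 1 library). The level of the 134-base form did not pass (limma log2 change 0.37 ± 0.15 SE, adjusted p = 0.341). The wild-type libraries lay close together here, and the knockout libraries all stood at a single form.

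On chromosome 8, plus strand (ENSOCUG00000005164), a pair at 586670-586789 (120 bases) and 586685-586789 (105 bases) differed by 15 bases at the acceptor, a multiple of 3. The 105-base form took 39.8%, 50.7% and 44.3% in knockout and was not listed in wild type (limma difference 44.92 points ± 3.57 SE, adjusted p = 0.00844). Its level was 4.79, 6.18 and 6.39 FPKM in knockout, while the 120-base form had 7.24, 6.02 and 8.03 FPKM in knockout and 13.8, 13.3 and 16.9 FPKM in wild type (limma adjusted p = 0.0578). The 2 forms together ranged from 12.0 to 16.9 FPKM over all 6 libraries. The share missed the threshold without wild-type replicate 1 (limma adjusted p = 0.0504) or 2 (0.0528). The same 2 exons were also listed as XAE with the same values, so this locus counts once.

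On chromosome 13, minus strand (ENSOCUG00000025593), 4 AE forms shared the boundary 39476248 and began at 39475905 (344 bases), 39475944 (305 bases), 39475983 (266 bases) and 39476088 (161 bases), so neighbouring forms differed by 39, 39 and 105 bases, all multiples of 3. Wild-type libraries listed only the 305-base form, at 77.8, 45.8 and 76.2 FPKM. In knockout this form had 91.3, 60.2 and 339 FPKM, a level that did not pass (limma adjusted p = 0.543), but its share was 34.2%, 25.7% and 38.5%, against 100% in each wild-type library (limma difference -67.20 points ± 3.48 SE, adjusted p = 0.00207, passing in all 6 fits without 1 library). The 344-base form filled most of the rest, with 176, 174 and 338 FPKM in knockout and no listing in wild type (limma adjusted p = 0.0776 for its share). Knockout replicate 3 was the only library to list the 266- and 161-base forms. The same exons were listed as XAE.

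A second group of the same locus, at 39475596 to 39475829, held 10 AE forms in steps that included 39, 78 and 117 bases, and also 11 and 28 bases, which are not multiples of 3. Wild-type libraries listed 1 of them, a 78-base exon at 39475752-39475829, at 45.1, 22.0 and 51.0 FPKM, while knockout libraries listed 6, 3 and 8 other forms beside it. Its share was 47.1%, 58.5% and 21.3% in knockout and 100% in wild type, which did not pass (limma adjusted p = 0.0867, and 0.0256 without knockout replicate 3). Forms of this group that end at 39475673 do not overlap the 78-base exon but count in its share. A 195-base form at 39475635-39475829 had 58.9, 60.7 and 101 FPKM in knockout and was not listed in wild type (limma adjusted p = 0.156 for its share).

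On chromosome 21, plus strand, 3 forms ended at 3177638 and began at 3177382 (257 bases), 3177411 (228 bases) and 3177414 (225 bases), acceptor steps of 29 and 3 bases. Knockout libraries listed only the longest form, at 16.8, 16.4 and 14.0 FPKM. In wild type the longest form had 8.69, 7.56 and 6.34 FPKM and a share of 52.7%, 49.1% and 48.6% (limma difference in share 49.87 points ± 2.60 SE, adjusted p = 0.00207, passing in all 6 fits without 1 library). The summed level of the group was alike in both genotypes, 13.0 to 16.8 FPKM over all libraries, and the share of the 225-base form, at 30.8%, 23.4% and 22.6% in wild type, passed at an adjusted p of 0.0425 in limma but in none of the fits without 1 library (0.0906 to 0.145). The 228-base form did not pass in share (limma adjusted p = 0.0947).

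On chromosome 12, minus strand, 5 overlapping forms lay between 25551721 and 25553762. A 12-base exon at 25552748-25552759 took 82.8%, 71.9% and 87.9% in wild type and was not listed in knockout (limma difference -80.88 points ± 4.98 SE, adjusted p = 0.00364, passing in all 6 fits without 1 library). With AE and XAE exons grouped together the difference was -33.73 points (limma adjusted p = 0.0206). The group was low, at 2.02 to 8.21 FPKM in sum. The knockout libraries did not share a replacement: replicate 2 listed only a 108-base form, replicate 3 only a 1805-base form, and replicate 1 both of these and a 2042-base form.

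**Figure D4:**
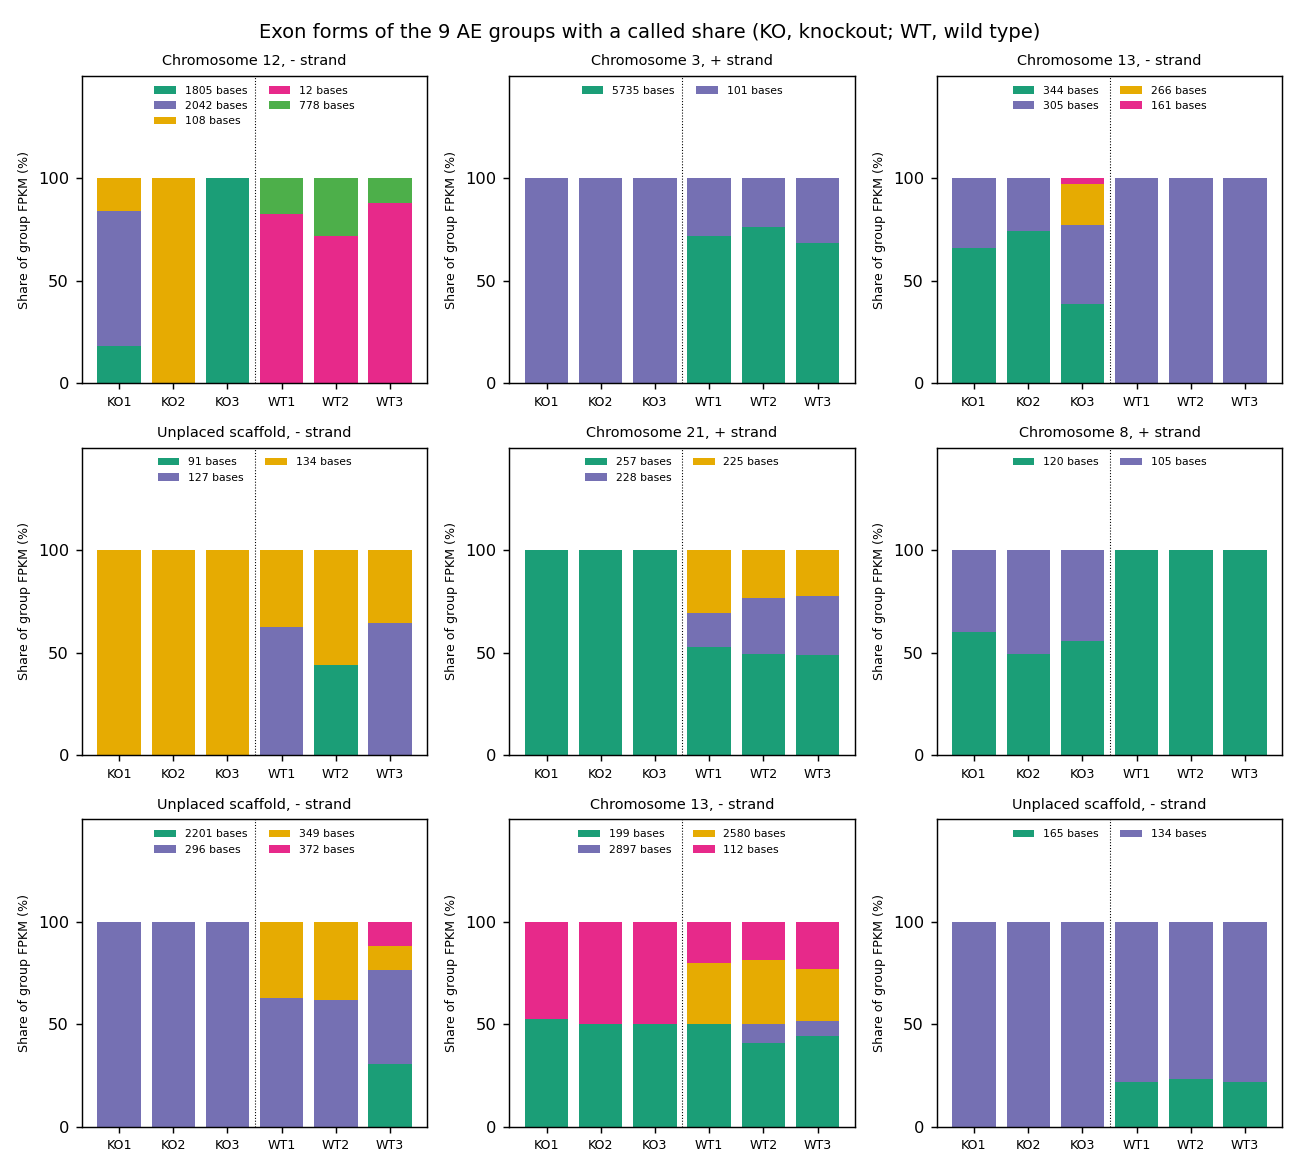
Share of each exon form (stacked bars, % of the group's FPKM) in the 3 knockout libraries (KO1 to KO3, left of the dotted line) and the 3 wild-type libraries (WT1 to WT3, right) for the 9 AE groups with a form that passed, with forms labelled by exon length. In every panel a form is present on 1 side of the line and missing from the other, and in 5 panels the knockout bars hold a single form.

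The other 3 called AE groups missed the threshold in some fits without 1 library, but their differences in share kept their sign. For the chromosome 13 group they ranged from -30.78 to -27.75 points (2580-base exon) and from 27.61 to 29.90 points (112-base exon). On unplaced scaffolds they ranged from 53.21 to 63.49 points (exon at 28405-28538) and from 37.52 to 46.23 points (exon at 278463-278758). On chromosome 13, minus strand, a 2580-base exon at 74454200-74456779, which spans a retained intron, had 17.4, 19.0 and 20.8 FPKM in wild type and was not listed in knockout. It took 30.1%, 31.4% and 25.4% of its group in wild type (limma difference in share -28.98 points ± 2.43 SE, adjusted p = 0.00974), and the 112-base exon at 74456668-74456779 took 47.4%, 50% and 50% in knockout and 19.9%, 18.6% and 23.1% in wild type (28.59 points ± 2.32 SE, adjusted p = 0.00882). Without knockout replicate 2, wild-type replicate 1 or wild-type replicate 2 the limma adjusted p was 0.0564, 0.0553 and 0.0531 for the long exon and 0.0521, 0.0511 and 0.0528 for the short one. With the arcsine square root of the share the 112-base exon did not pass (limma adjusted p = 0.0965). The level of this exon was 15.3, 25.1 and 8.22 FPKM in knockout and 11.5, 11.2 and 19.0 FPKM in wild type. That level did not pass (limma log2 change 0.12 ± 0.41 SE, adjusted p = 0.912), so the higher share came without a called change in level. The 112-base exon and a 199-base exon of this group do not overlap each other and are linked only through longer forms, so a transcript with both counts for each, and their knockout shares near 50% arise from that rule.

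On an unplaced scaffold, minus strand, a 134-base exon at 28405-28538 was the only form listed in knockout, at 119, 139 and 169 FPKM, against 79.9, 99.9 and 60.5 FPKM in wild type, where 127- and 91-base forms shared the group. Its share was 100% in knockout and 37.5%, 56.1% and 35.5% in wild type (limma difference 56.97 points ± 5.65 SE, adjusted p = 0.0172). It passed without wild-type replicate 2 (adjusted p = 0.00403) and in none of the other 5 such limma fits: 0.0708, 0.0776 and 0.0721 without knockout replicates 1, 2 and 3, and 0.0743 and 0.0598 without wild-type replicates 1 and 3. On another unplaced scaffold, minus strand, a 296-base exon at 278463-278758 was likewise alone in knockout and held 63.0%, 61.9% and 45.6% in wild type (limma difference 43.15 points ± 5.37 SE, adjusted p = 0.0425). It passed only without wild-type replicate 3 (adjusted p = 0.038), and the other such limma fits gave 0.128, 0.14 and 0.138 without knockout replicates 1, 2 and 3 and 0.0906 and 0.113 without wild-type replicates 1 and 2. Its exons were also listed as XAE.

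Among XAE groups, 3 had no called AE counterpart. On chromosome 13, minus strand, a 519-base exon at 6878446-6878964 took 100%, 100% and 91.3% in knockout and was not listed in wild type (limma difference 97.11 points ± 4.71 SE, adjusted p = 0.00207, passing in all 6 fits without 1 library). Wild-type libraries did not share an alternative: replicate 1 listed a 247-base form, replicate 2 a 45- and a 181-base form, and replicate 3 the 181-base form, all with the same lower boundary. The 45-base form was also listed in knockout replicate 3, at 0.513 FPKM. Levels were low, with 3.12, 4.92 and 5.40 FPKM for the 519-base exon in knockout. In wild type the whole group summed to only 1.86, 1.77 and 1.13 FPKM, near the 1 FPKM minimum. On chromosome 4, plus strand, a 193-base exon at 84766470-84766662 was alone in knockout and held 63.2%, 71.3% and 69.8% of its group in wild type, which also held forms of 61, 2175 and 3101 bases (limma difference 31.90 points ± 3.04 SE, adjusted p = 0.0144). It passed without wild-type replicate 1 (0.0451) and in no other such fit, with 0.0616, 0.0721 and 0.0609 without knockout replicates 1, 2 and 3 and 0.0542 and 0.0634 without wild-type replicates 2 and 3. Its level was 17.9, 13.2 and 22.6 FPKM in knockout and 16.8, 14.2 and 19.4 FPKM in wild type (log2 change by limma 0.07 ± 0.23 SE, adjusted p = 0.912). Only the 3101-base form overlaps this exon, and it had 1.76, 1.37 and 0 FPKM in wild type. The 61- and 2175-base exons end before the 193-base exon begins and lower its wild-type share only through connected overlap. The third, on an unplaced scaffold, was a 4695-base exon at 2314188-2318882 in a group of 21 forms, with 21.3%, 31.5% and 25.7% in knockout and no listing in wild type (limma adjusted p = 0.0425, and 0.0565 to 0.164 in the fits without 1 library). Forms of this group that end before 2314188 do not overlap the 4695-base exon but count in its share through connected overlap.

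Levels of single forms gave more calls than shares. With limma on log2(FPKM + 1) over 37917 events of all types that reached 1 FPKM in at least 3 libraries, 59 of 3312 AE forms passed, 29 higher and 30 lower in knockout. That is 1.78%, against 2.06% of all events (0.876% higher and 0.906% lower, against 0.997% and 1.06%). For XAE, 46 of 1061 passed (4.34%), 28 higher and 18 lower (2.64% and 1.7%). The called forms lay in 50 groups at 46 loci for AE and in 36 groups at 29 loci for XAE, so they are not separate observations. Forms that did not reach the filter numbered 3097 for AE and 1149 for XAE. Of the called forms, 41 of the 59 AE and 39 of the 46 XAE forms were missing from 1 genotype altogether. Such forms reached the filter only through the genotype that lists them, so their counts are a description, and with no filter on low values 27 AE and 26 XAE forms passed. No level p is given for single forms of this kind. Without knockout replicate 3, 18 AE forms passed (1 higher, 17 lower) and 13 XAE forms (1 and 12). Leaving out a knockout library gave mostly lower calls and leaving out a wild-type library mostly higher ones, since a form listed only in the shortened genotype then cannot reach the filter. Without knockout replicates 1 and 2, 28 and 13 AE forms passed and 16 and 8 XAE forms. Without wild-type replicates 1, 2 and 3 the counts were 10, 8 and 14 for AE and 9, 9 and 16 for XAE. Over all AE events, 50 (0.78%) were listed in 3 knockout and 0 wild-type libraries and 72 (1.12%) the other way round, against 0.817% and 1.04% of all events. For XAE these were 33 (1.49%) and 22 (0.995%).

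The most abundant AE groups otherwise showed how far shares move within a genotype. On chromosome 19, minus strand, a pair at 41855034-41855195 and 41855091-41855195 with a donor shift of 57 bases had the longer form at 100%, 61.0% and 51.9% in knockout and 44.1%, 74.2% and 100% in wild type, at 388 to 903 FPKM in sum. Its genotypes overlapped over nearly the whole range (limma difference -1.82 points ± 18.16 SE, adjusted p = 0.969, and 7.72 points without knockout replicate 3). A group of 56-, 113- and 149-base forms about the same locus at 41822726 repeated the wild-type FPKM values exactly, as exons of the same transcripts do. The group of highest level, on chromosome 8 at 49790518-49790634, shifted by 28 bases at the acceptor, and its 89-base form was listed only in knockout replicate 1, at 360 of 900.4 FPKM.

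On chromosome 13, minus strand, 5 forms ending at 39397985 had lengths of 319, 295, 271, 247 and 223 bases, each 24 bases shorter than the one before. Knockout replicate 1 listed none of them, so the group entered only the fit without that library. There the 295-base form took 94.2% and 100% in knockout replicates 2 and 3 and 39.9%, 38.9% and 22.4% in wild type (limma difference 63.37 points ± 6.33 SE, adjusted p = 0.0416), and the 223-base form 0% in both knockouts and 17.1%, 19.0% and 18.4% in wild type (-18.17 points ± 1.86 SE, adjusted p = 0.0442). The other 3 forms did not pass (limma adjusted p 0.106 to 0.773). The 271-base form had 95.7, 69.0 and 127 FPKM and the 223-base form 71.9, 70.1 and 83.5 FPKM in wild type, and both were missing from all 3 knockout libraries. The 295-base form had 0, 228 and 270 FPKM in knockout and 168, 144 and 102 FPKM in wild type, and did not pass (limma adjusted p = 0.724). Knockout replicate 1 did list another exon of this locus, the 66-base form of a pair at 39398984-39399125, at 366 FPKM. Neither form of that pair, 76 bases apart at the acceptor, was listed in knockout replicates 2 and 3 or wild-type replicate 2.

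Other pairs were steady. On chromosome 12, plus strand, exons at 1306126-1308420 and 1306126-1306623, with a donor shift of 1797 bases, stood at 64.9%, 65.1% and 65.3% for the longer form in knockout and 67.2%, 67.3% and 62.4% in wild type (limma difference -0.54 points ± 2.01 SE, adjusted p = 0.902). On chromosome 9, minus strand, the 195-base form of a pair 150 bases apart at the acceptor held 95.1% to 97.8% in knockout and 92.4% to 95.9% in wild type, at 141 to 273 FPKM in sum. An 18-base acceptor shift on chromosome 13, plus strand, at 98833395-98833484 and 98833413-98833484, was used almost evenly, with the longer form at 52.2%, 55.2% and 56.7% in knockout and 48.9%, 61.1% and 58.4% in wild type (limma difference -1.47 points ± 3.72 SE, adjusted p = 0.847, and -2.45 points without knockout replicate 3).

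Other abundant pairs varied among libraries of the same genotype. On chromosome 19, plus strand, the 536-base form of a pair with a donor shift of 170 bases took 21.5%, 70.8% and 44.6% in knockout and 71.6%, 72.4% and 23.3% in wild type (limma difference -10.16 points ± 17.99 SE, adjusted p = 0.774). The 536-base form itself was even, at 17.0, 17.2 and 11.5 FPKM in knockout and 17.3, 17.7 and 16.6 FPKM in wild type, while the 366-base form ranged from 7.12 to 62.0 FPKM in knockout and from 6.76 to 54.5 FPKM in wild type. On chromosome 14, minus strand, the 188-base form of a pair 66 bases apart at the acceptor took 11.7%, 12.9% and 0% in knockout and 18.3%, 14.5% and 16.4% in wild type (limma difference -8.18 points ± 3.94 SE, adjusted p = 0.725, and -4.08 points without knockout replicate 3). The 0% is knockout replicate 3, where the pair had 4.78 FPKM in all, and every knockout library lay below every wild-type one. The most abundant XAE group, on chromosome 10, minus strand, was a pair of 15- and 625-base exons that nearly excluded each other within libraries. Its longer form held 100%, 0% and 0% in knockout and 100%, 0% and 71.9% in wild type, at 363 to 4508 FPKM in sum (limma difference -23.97 points ± 37.04 SE, adjusted p = 0.746, and -7.31 points without knockout replicate 3).

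Of the 4 acceptor pairs with a shift of 3 bases, the 2 most abundant with a minor form of at least 10% overlapped between genotypes in share. On chromosome X, plus strand, exons at 33276326-33276411 and 33276329-33276411 differ by 3 bases at the acceptor, and the longer form took 77.8%, 81.5% and 86.0% in knockout and 82.9%, 84.9% and 83.9% in wild type (limma difference -2.11 points ± 2.73 SE, adjusted p = 0.725, and -4.23 points without knockout replicate 3). The level of that form fell, to 40.4, 36.1 and 40.0 FPKM in knockout, against 65.9, 63.5 and 63.1 FPKM in wild type (log2 change by limma -0.71 ± 0.12 SE, adjusted p = 0.0483), and this too missed the threshold in each of the 6 fits without 1 library (0.0722 to 0.291). On chromosome 12, plus strand, the pair at 22626928-22627057 and 22626931-22627057, also 3 bases apart, had the longer form at 71.4%, 61.6% and 81.2% in knockout and 69.3%, 68.7% and 68.9% in wild type (limma difference 2.45 points ± 5.13 SE, adjusted p = 0.81, and -2.43 points without knockout replicate 3). Knockout libraries were more widely spread there than wild-type ones, and the groups overlap.

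**Figure D5:**
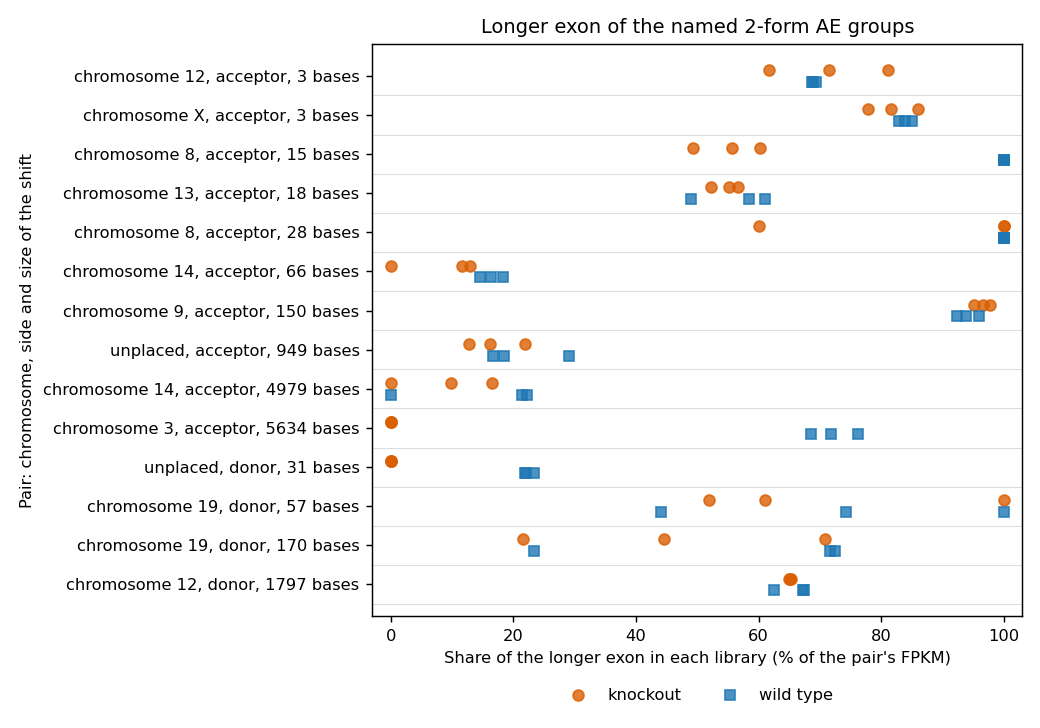
Share of the longer exon (horizontal axis, % of the pair's FPKM) in each knockout library (orange circles) and each wild-type library (blue squares) for the named AE pairs with a share in every library, ordered by side and size of the shift (vertical axis). The circles and squares stand apart in the 3 called pairs (acceptor shifts of 15 and 5634 bases, donor shift of 31 bases). They also stand apart in the pair with an acceptor shift of 66 bases, which was not called, and the 3-base pairs overlap.

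Few pairs exchanged their main form. Of the 1600 tested AE pairs, 3 had the longer form under 50% in every knockout library and over 50% in every wild-type library, and 0 the other way. Multiples of 3 made up 698 of the 1600 pairs, and 95 of the 170 whose longer form lay on both sides of 50%. The 3 pairs that exchanged their main form all shifted by a multiple of 3, and they were picked after their values were seen. In 1 of the 3 the longer exon spanned a retained intron, as it did in 225 of the 1600. Of 323 tested XAE pairs, 0 exchanged their main form in either direction, and other kinds of elements were not counted in this way. The chromosome 3 pair above is 1 of the 3 AE pairs. On chromosome 17, minus strand, the longer form at 14239942-14240750, with an acceptor shift of 576 bases, took 46.1%, 23.2% and 13.1% in knockout and 68.5%, 55.0% and 60.7% in wild type (limma difference -33.97 points ± 9.12 SE, adjusted p = 0.314, and -26.80 points without knockout replicate 3). On chromosome 18, minus strand, the longer form at 40075856-40076015, with a donor shift of 69 bases, took 47.7%, 46.9% and 0% in knockout and 66.5%, 59.7% and 55.5% in wild type, at 1.22 to 2.15 FPKM in sum (limma difference -29.02 points, adjusted p = 0.725). The 0% is knockout replicate 3, and without it the difference was -13.24 points (limma adjusted p = 0.79). Neither passed.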

How the data were processed

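Skin RNA of 3 knockout and 3 wild-type rabbit libraries was analysed, 1 table per library. Trizol extraction and the NEBNext Ultra RNA library kit are recorded, per the labels' protocols. bcl2fastq 2.17.1.14 and cutadapt were used, per the submitters' processing notes. No aligner, assembler, event caller or build is given in the sources used here. Values are FPKM per transcript event as deposited by the authors, per the file headers. No row is at 0 (lowest 0.000171), and missing rows entered as 0. No counts are given, which leaves the depth unknown and allows no counting interval.

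AE and XAE events were grouped by connected overlap within a locus, separately. Connected exons need not all overlap each other, so a transcript can count more than once in a group. Groups needed at least 2 forms and 1 FPKM in sum in every library. Shares were tested with limma 3.58.1 (R 4.3.3, trend on group level, genotype only, two-sided, Benjamini-Hochberg at 0.05 over 17869 elements). Levels were tested with limma on log2(FPKM + 1), which understates changes of low exons. No fold is given against a genotype with no listing. Values per library were compared by exact two-sided permutation. Python 3.11.15 with pandas 2.3.3 was used.

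Named groups are those called, the 10 AE and 3 XAE groups of highest level, and, by side and frame of the shift, up to 2 abundant pairs whose minor form averaged at least 10% (no 3-base donor pair was found). Groups of highest level needed at least 2 forms. Members and lists were chosen with earlier results of these data known. Alternatives were another minimum level, exons listed in all 6 libraries, a transformed share, joint grouping, library weights, another pseudocount, a replicate block and leaving out each library. Gene names could not be paired with the Ensembl IDs, and exon sequences were not used here.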

Additional observations from a re-analysis of the deposited data

How the results depend on the processing

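No AE or XAE share passed when only exons listed in all 6 libraries were used (0 of 331 and 0 of 68 forms by limma, with 26 and 8 at an unadjusted p under 0.05), since every called group has a form missing from 1 genotype. Among the other fits of all 6 libraries without a block, AE share calls ranged from 11 to 16 and XAE calls from 4 to 11, the 11 coming from the arcsine square root of the share. The 2 ends of the leave-one-out fits were 6 and 13 for AE shares, 2 and 7 for XAE shares, 8 and 28 for AE levels and 8 and 16 for XAE levels. Without a filter on low values, 27 AE and 26 XAE levels passed. Libraries share replicate numbers in their titles, but same-numbered libraries deviated together by at most 0.039 in shares and 0.0878 in levels (correlation), so the numbers were not treated as a pairing. With the replicate block 0 AE and 0 XAE shares passed (140 and 54 at an unadjusted p under 0.05, smallest limma adjusted p 0.0749), and 20 AE and 20 XAE levels. The difference in AE events listed was -112.3, -79.7 at 5 FPKM or more, and -200.8 to -64.33 in the fits without 1 library. For XAE it was -9, 0.0295 points as a percent of all events, and -40.5 to 9.5 without 1 library, positive without knockout replicate 1 or wild-type replicate 2 or 3. Differences in share that turned sign without 1 library had not passed, and over these fits they ranged from -16.33 to 11.8 points (3.17 and 7.72 in between) for the chromosome 19 donor pair of 57 bases, from -2.14 to 0.299 for the chromosome 12 pair of 1797 bases, from -26.40 to 1.90 for the chromosome 19 pair of 170 bases, from -2.43 to 7.35 for the 3-base pair of chromosome 12, from -5.07 to 1.01 for the 18-base pair of chromosome 13 and from -2.94 to 6.82 for a 499-base XAE exon. FPKM without counts limits what a missing row can show.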
